A study of Homo sapiens with 15 samples.

Results

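Surface proteins that are used or tested as therapy targets in prostate cancer were chosen by gene symbol, without a rule on measured values, and 5 of the 6 genes named had a row among the 17272 genes measured in LNCaP cells. The 5 genes are FOLH1, which encodes prostate-specific membrane antigen (PSMA), EPCAM, CD276, CD46 and PSCA. F3, which encodes tissue factor, had no row and was not analysed here. LNCaP is an androgen-sensitive human cell line from a prostate cancer metastasis. Cells were kept for 2 days in charcoal-stripped serum, which holds little androgen, and were then treated for 22 h before polyadenylated RNA was sequenced. The R1881 group (n = 10) came from cells given 1 nM R1881, a synthetic androgen, with DMSO as the vehicle, and the R1881 + enzalutamide group (n = 5) came from cells given 1 nM R1881 and 2 µM enzalutamide, a drug that blocks the androgen receptor. The comparison therefore asks how the mRNA of these targets differs when the receptor is blocked in the presence of androgen. All 15 libraries came from a single cell line, no library of cells without R1881 was analysed here, and mRNA was measured, not protein at the cell surface.

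PSMA is a membrane peptidase of the prostate epithelium that releases glutamate from folates and from a neuropeptide, and it is the target of PET tracers and of radioligand therapy. EPCAM is an epithelial adhesion protein used to capture circulating tumour cells, CD276 (B7-H3) is an immune checkpoint relative of PD-L1, CD46 is a complement inhibitor that protects cells from their own complement, and PSCA is a small lipid-anchored protein of the LY6 family. Enzalutamide keeps the androgen receptor from activating its target genes, and FOLH1 is known in prostate cells as a gene that androgen represses.

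Values are what the authors call CPM, reads per gene times a factor of each library, as they deposited them. They are given as the mean ± SD over libraries. How the factor was set is not stated in the sources used here. The values sum to between 1053406 and 1078567 per R1881 library and between 985580 and 1008992 per R1881 + enzalutamide library. Counted reads ranged from 15830745 to 25416052 per library. The test was limma on log2(CPM + 0.5) over the 17046 genes with a mean of at least 0.5 CPM, with Benjamini-Hochberg adjustment and a threshold of 0.05. Fold changes are on that scale, which understates the change of genes with few reads. A two-sided exact permutation test, with every regrouping of the 15 libraries, is given beside it, and 0.000333 is the smallest p it can give. The treatment was visible in androgen-induced genes. KLK3, which encodes PSA, was at 1588 ± 209 CPM with R1881 and 134 ± 7.66 CPM with enzalutamide (log2 fold change -3.55), and KLK2, TMPRSS2 and FKBP5 differed by -4.87, -3.56 and -4.99. Over all genes, 62.5% passed the threshold (29.8% higher and 32.7% lower with enzalutamide), the ranges of the libraries did not overlap for 37.2%, and 7.45% passed with a change of at least 2-fold. Of the genes that passed, 47.7% were higher with enzalutamide in the values as deposited and 60.7% when each library's values were set to sum to 1000000.

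Of the 5 targets measured, 4 passed the threshold, 3 higher (FOLH1, CD276 and EPCAM) and 1 lower (CD46) with enzalutamide, beside 62.5% of all genes. FOLH1 was the 1 target with a change of at least 2-fold. The libraries of the treatments did not overlap for FOLH1, CD276 and CD46, which is 3 of 5 genes beside 37.2% of all genes. PSCA did not pass.

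**Figure D1:**
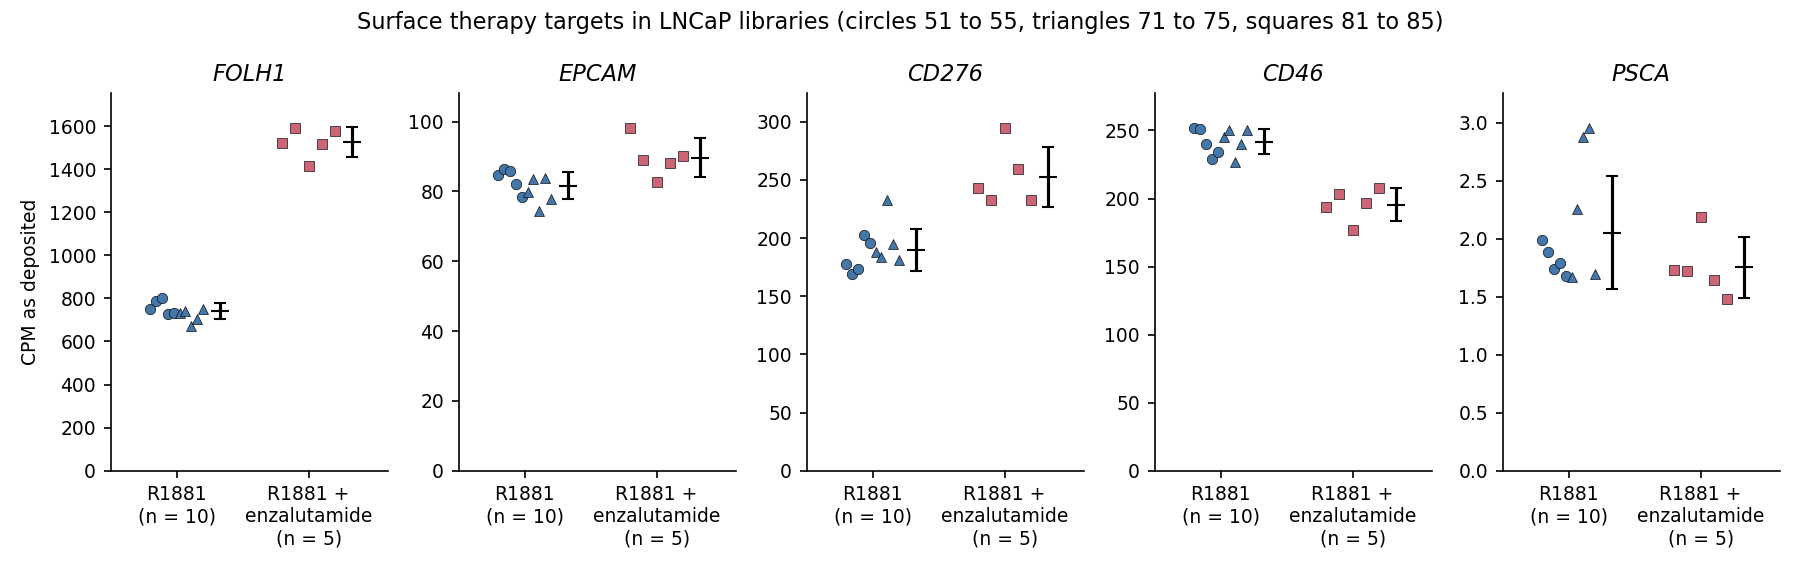
CPM as deposited (linear axes from 0) of FOLH1, EPCAM, CD276, CD46 and PSCA in each library, with R1881 (n = 10) and R1881 + enzalutamide (n = 5). Points are libraries (circles for those numbered 51 to 55, triangles 71 to 75, squares 81 to 85), and bars are the mean ± SD. FOLH1 libraries lie at 672 to 800.2 CPM with R1881 and 1416 to 1593 CPM with enzalutamide, CD46 lies lower with enzalutamide, and the EPCAM and PSCA libraries overlap.

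FOLH1 lies on chromosome 11 at positions 49145092 to 49208638 of GRCh38, on the minus strand, with 19 exons in its canonical transcript (GENCODE v44). A near copy, FOLH1B, annotated as a transcribed pseudogene, lies on the other arm at positions 89639237 to 89698599 on the plus strand. The annotation holds another entry of this name, a noncoding gene that shares 1614 exon bases with it on the same strand. The pseudogene entry is described here, and which entry the measured FOLH1B values count is not known. Of 2132 coding bases of FOLH1 that aligned to FOLH1B, 27 differed (98.7% identical), and the longest run without a difference was 414 bases. The stretches below are shown because reads of 50 bases from either gene are told apart, in the aligned part, only by such bases. The first pair is the 60-base stretch with the most differences, 3, in exon 3 of FOLH1 (chr11:49200297-49200356, minus strand) and exon 2 of FOLH1B (chr11:89645088-89645147, plus strand), written 5′ to 3′ along each transcript with the differing bases in capitals. The last line is the first 60-base stretch without a difference, in exon 2 of FOLH1 (chr11:49206113-49206172, minus strand) and exon 1 of FOLH1B (chr11:89639237-89639296, plus strand).
FOLH1: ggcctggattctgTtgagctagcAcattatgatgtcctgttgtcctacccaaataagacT
FOLH1B: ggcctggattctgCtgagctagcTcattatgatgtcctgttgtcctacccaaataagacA
FOLH1 and FOLH1B: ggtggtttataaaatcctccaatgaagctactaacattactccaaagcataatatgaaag

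Of the 4061 windows of 50 bases in the FOLH1 transcript, 1091 (26.9%) were also present in either entry named FOLH1B. No other gene of the annotation held 2954 of them. Of the 2086 windows of the FOLH1B pseudogene, 1061 (50.9%) were also present in FOLH1. The sources used here do not say how reads that match both genes were counted, so the levels of either gene may include reads of the other.

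FOLH1 mRNA was higher with enzalutamide. The R1881 libraries held between 672 and 800.2 CPM, with a median of 737 CPM. The R1881 + enzalutamide libraries held 1593, 1416, 1524, 1578 and 1519 CPM in replicates 1 to 5. Each library with enzalutamide was above each library without it. The mean was 739.9 ± 37.1 CPM (n = 10) with R1881 and 1526 ± 69.7 CPM (n = 5) with enzalutamide, a ratio of 2.06, and the median was 107% higher. The log2 fold change was 1.04 (SE 0.038, 95% interval 0.96 to 1.12, adjusted p = 1.19e-15 by limma, exact permutation p = 0.000333). Between 11087 and 38752 reads were counted on FOLH1 per library. Among all genes tested, 1160 (6.81%) had a larger absolute log2 fold change than FOLH1, and 504 had a higher one. RNA of the whole culture was measured, so more cells with FOLH1 mRNA and more FOLH1 mRNA per cell cannot be told apart.

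The relatives of FOLH1 are shown for the shared sequence and for the enzyme family. FOLH1B was at 371.0 ± 17.8 CPM with R1881 and at 770.1 ± 33.1 CPM with enzalutamide (log2 fold change 1.05, SE 0.037). The FOLH1 to FOLH1B ratio ranged from 1.96 to 2.03 in the R1881 libraries and from 1.97 to 2.00 in the enzalutamide libraries, so the level of the pair moved and its ratio overlapped between treatments. NAALAD2, a peptidase of the same family on chromosome 11 that shares none of its 50-base windows with FOLH1, was at 6.61 ± 1.27 CPM with R1881. With enzalutamide it was at 17.04, 14.9, 14.1, 17.4 and 16.2 CPM, above each R1881 library (mean 15.9 ± 1.41 CPM, log2 fold change 1.22, SE 0.11, adjusted p = 3.16e-09 by limma). The FOLH1 to NAALAD2 ratio was 89.7 to 137 with R1881 and 90.8 to 108 with enzalutamide, and these ranges overlapped.

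**Figure D2:**
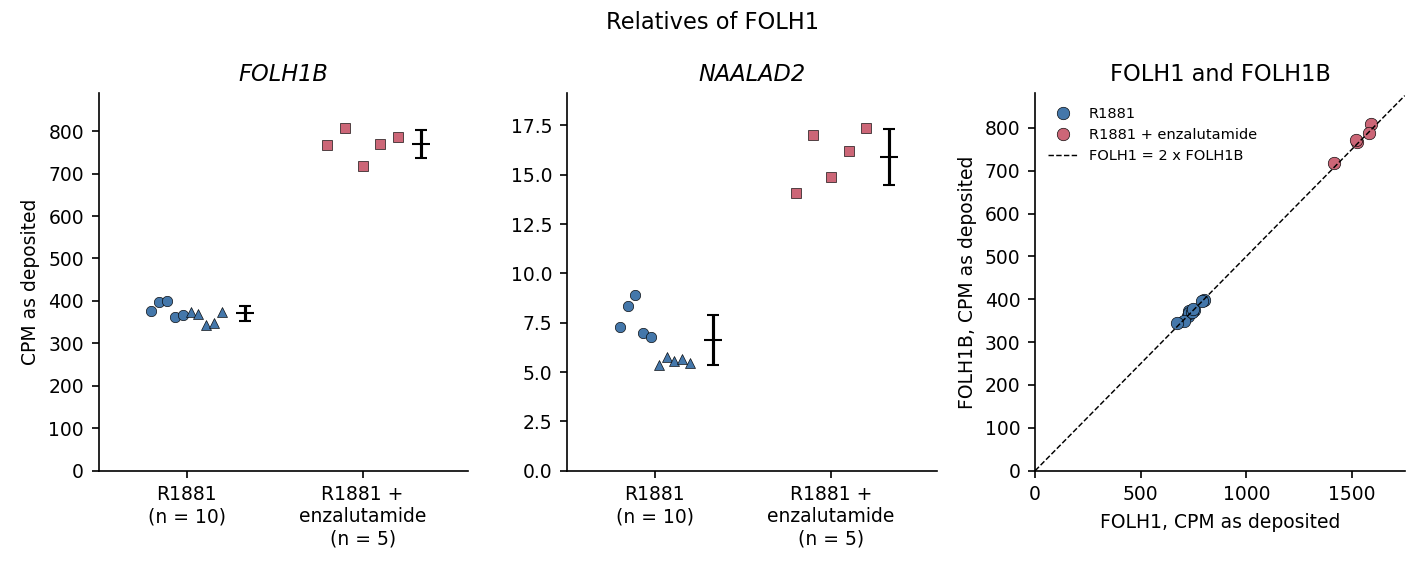
CPM as deposited of FOLH1B (left) and NAALAD2 (middle) in each library with R1881 (n = 10) and R1881 + enzalutamide (n = 5), with bars of the mean ± SD, and FOLH1B against FOLH1 in each library (right), with a dashed line where FOLH1 is 2 times FOLH1B. Circles, triangles and squares on the left and in the middle are libraries numbered 51 to 55, 71 to 75 and 81 to 85. Both relatives are higher in each enzalutamide library than in any R1881 library, and the FOLH1 to FOLH1B ratio lies from 1.96 to 2.03.

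The wider list of PSMA relatives and genes of folate handling held 23 genes, of which 17 had a row and 16 were tested. Of these, 4 were higher and 10 were lower with enzalutamide, beside 29.8% and 32.7% of all genes. The median log2 fold change was -0.36 beside -0.01 over all genes. The 4 higher genes were FOLH1B, NAALAD2, NAALADL2 (0.34) and the folate transporter SLC46A1 (0.14). The FOLH1B values may include reads of FOLH1, so FOLH1B may not count as a separate gene here. The lower genes were led by TYMS, which makes thymidylate with a folate cofactor, at 88.0 ± 8.42 CPM with R1881 and 45.2 ± 3.11 CPM with enzalutamide (log2 fold change -0.95), and by MTHFD1L, a mitochondrial folate enzyme, at 20.2 ± 1.27 and 12.5 ± 0.953 CPM (-0.67). SLC19A1, the reduced folate carrier, was also lower (-0.63), as was TFRC, the transferrin receptor, whose protein fold resembles that of PSMA (-0.43). NAALADL2, SLC46A1, SLC19A1 and TFRC were named after their values were seen.

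EPCAM, on chromosome 2 at positions 47345158 to 47387601 (plus strand, 9 exons), differed little between treatments. The R1881 libraries held between 74.3 and 86.4 CPM, with a median of 82.9 CPM. The enzalutamide libraries held 89.0, 82.8, 98.2, 90.1 and 88.1 CPM. Replicate 2 with enzalutamide lay within the range of the R1881 libraries, and the other 4 lay above it. The mean was 81.7 ± 3.97 CPM with R1881 and 89.6 ± 5.57 CPM with enzalutamide, a ratio of 1.10, and the median was 7.34% higher. The log2 fold change was 0.13 (SE 0.043, 95% interval 0.04 to 0.22, adjusted p = 0.0105 by limma, exact permutation p = 0.005). The call was lost without replicate 3 of R1881 + enzalutamide, the library with the highest EPCAM value (log2 fold change 0.10, adjusted p = 0.0541 by limma), and when the 5 R1881 libraries numbered 51 to 55 were used alone (0.10, adjusted p = 0.0691).

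Among 22 genes of EPCAM partners and of its cleavage, 20 had a row and 19 were tested. With enzalutamide 5 were higher and 8 were lower, beside 29.8% and 32.7% of all genes, and 6 did not pass. The median log2 fold change was -0.01, the value over all genes. The higher genes were TSPAN8, a tetraspanin of the EPCAM complex (1.32 ± 0.217 to 6.75 ± 0.713 CPM, log2 fold change 2.00), TCF7L2, a partner of beta-catenin (5.42 ± 0.913 to 9.92 ± 0.519 CPM, 0.83), and LEF1 (0.27), BACE1 (0.14) and SPINT2 (0.14), the last 3 named after their values were seen. CD9, another tetraspanin, was lower, at 691 ± 22.7 CPM with R1881 and 386 ± 9.22 CPM with enzalutamide (-0.84), and PSEN2, a subunit of the gamma-secretase that cuts EPCAM, was at 48.8 ± 3.04 and 32.9 ± 1.14 CPM (-0.56). The partner CLDN7 (-0.16, adjusted p = 0.0502 by limma) and the adhesion protein CDH1 (0.03, adjusted p = 0.434) did not pass, and both were named after their values were seen.

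CD276, on chromosome 15 at positions 73683966 to 73714514 (plus strand, 10 exons), was higher with enzalutamide. The R1881 libraries held between 169 and 232 CPM, with a median of 186 CPM. The enzalutamide libraries held 233, 295, 243, 233 and 259 CPM. The ranges did not overlap, but replicate 6 of R1881 (232.3 CPM) lay just under the lowest enzalutamide library (232.6 CPM), and the next R1881 library was at 202 CPM. The mean was 189.9 ± 18.2 CPM with R1881 and 252 ± 26.1 CPM with enzalutamide, a ratio of 1.33, and the median was 30.6% higher. The log2 fold change was 0.41 (SE 0.064, 95% interval 0.28 to 0.54, adjusted p = 1.21e-05 by limma, exact permutation p = 0.000333).

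The 2 libraries with the highest CD276 in their groups, R1881 replicate 6 and R1881 + enzalutamide replicate 2, also stood apart in base composition. Across 14506 genes, the deviation of a library from its treatment mean followed the GC content of the transcript with Spearman's rho of 0.73 and 0.70 in these libraries and 0.56 in R1881 replicate 5, and with rho between -0.62 and 0.21 in the others (across genes, which are not independent replicates and share a library). CD276, whose longest transcript has a GC content of 60.0%, deviated by 0.30 and 0.23 on the log2 scale in these 2 libraries, while FOLH1 (41.3% GC) deviated by -0.14 and -0.11 and CD46 (37.7% GC) by -0.09 and -0.14. For the removal of this trend, deviations were instead taken from the mean over all 15 libraries, so a GC trend that differs between treatments was removed too. After each library's trend on GC content was taken out in this way, the log2 fold change was 0.49 for CD276, 1.08 for FOLH1, 0.15 for EPCAM and -0.29 for CD46. Without these 2 libraries it was 0.38 for CD276 (adjusted p = 7.70e-08 by limma), 1.06 for FOLH1, 0.15 for EPCAM and -0.28 for CD46. These 4 genes passed the threshold in both settings, which were chosen after the data were seen.

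**Figure D3:**
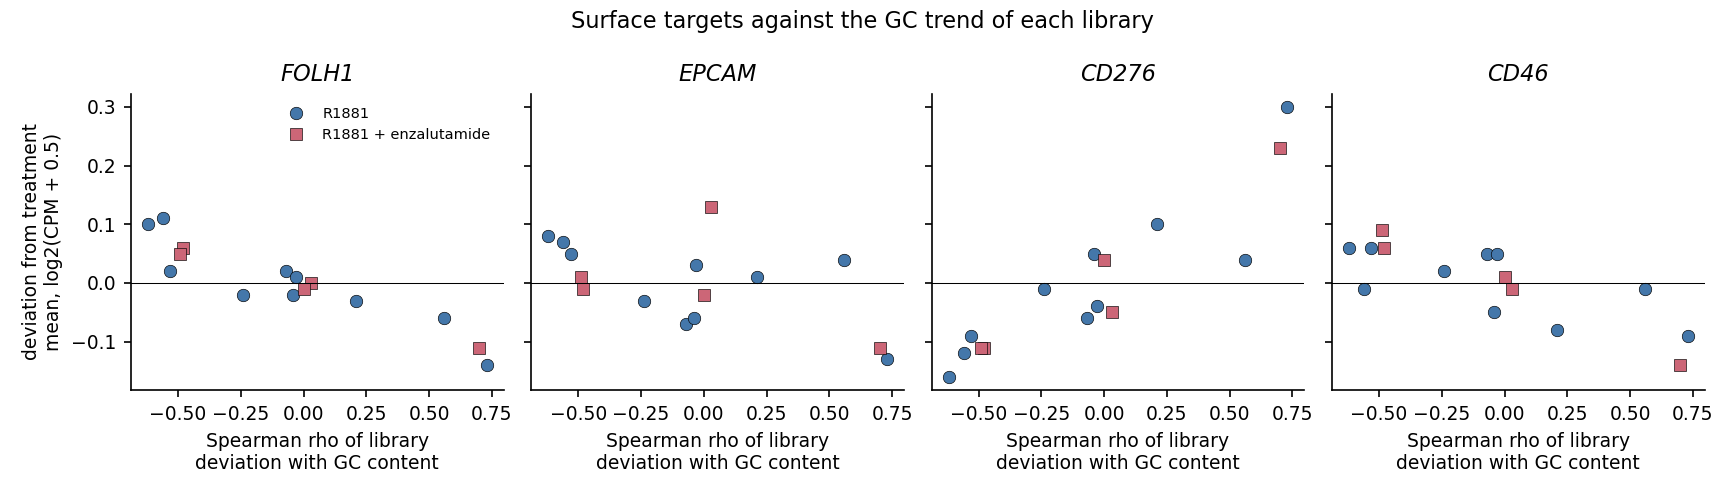
Deviation of FOLH1, EPCAM, CD276 and CD46 from their treatment means (log2(CPM + 0.5)) in each library (vertical axis), against the Spearman's rho of that library's deviations with transcript GC content over 14506 genes (horizontal axis). Points are the 15 libraries, circles with R1881 and squares with R1881 + enzalutamide. CD276 is highest, at 0.30 and 0.23, in the libraries with a rho of 0.73 and 0.70, where FOLH1 is at -0.14 and -0.11.

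In the B7 and butyrophilin family, to which CD276 belongs, 8 of 14 genes had a row. Of these, 5 were higher and 2 were lower, beside 29.8% and 32.7% of all genes. The other 1, BTN3A1 (0.12, adjusted p = 0.0888 by limma), did not pass. The median log2 fold change was 0.26 beside -0.01 over all genes. BTN2A2, a butyrophilin of T cell regulation, was at 14.9 ± 0.687 CPM with R1881 and 28.3 ± 1.06 CPM with enzalutamide (log2 fold change 0.90), and NCR3LG1 (B7-H6), a ligand of natural killer cells, was at 8.35 ± 0.962 and 12.4 ± 1.19 CPM (0.55). CD274, which encodes PD-L1, BTN3A2 and BTN3A3 were the other higher genes (0.22, 0.51 and 0.31), and these and BTN3A1 were named after their values were seen. ICOSLG, a costimulatory ligand, was lower at 10.6 ± 1.44 and 8.66 ± 1.58 CPM (-0.29, adjusted p = 0.0168 by limma), as was BTN2A1 at 31.3 ± 1.15 and 28.8 ± 1.36 CPM (-0.12, adjusted p = 0.0200). These calls were lost in 4 and 8 of 29 other settings.

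CD46, on chromosome 1 at positions 207752037 to 207795513 (plus strand, 13 exons in its canonical transcript), was the target that fell with enzalutamide. The R1881 libraries held between 227 and 252 CPM, with a median of 243 CPM. The enzalutamide libraries held 203, 177, 194, 208 and 196 CPM. Each of them was below each R1881 library. The mean was 241.9 ± 9.49 CPM with R1881 and 196 ± 11.9 CPM with enzalutamide, a ratio of 0.809, and the median fell by 19.1%. The log2 fold change was -0.31 (SE 0.038, 95% interval -0.39 to -0.23, adjusted p = 5.08e-07 by limma, exact permutation p = 0.000333). The exons of CD46 share 797 bases with MIR29B2CHG, a noncoding gene on the opposite strand that has no row, and the sources used here do not say if strand was used in counting.

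Of 19 other complement regulators and components, 9 had a row. With enzalutamide 7 were higher, C4A and C4B among them, beside 29.8% of all genes. The other 2 (C1S at 0.27 and CLU at 0.10) did not pass by limma. The log2 fold changes of all 9 were above 0, with a median of 0.48 beside -0.01 over all genes. At a mean of at least 1 CPM, 4 of them passed. C1R, a protease of the first complement component, was at 13.9 ± 1.28 CPM with R1881 and 26.6 ± 0.551 CPM with enzalutamide (log2 fold change 0.92). C4B was at 1.42 ± 0.246 and 2.27 ± 0.315 CPM (0.53) and C4A differed by 0.52. These are near-identical copies whose reads the counting may split, so neither value is certain. The membrane inhibitors CD55 and CD59, which act beside CD46, differed by 0.49 and 0.19, with CD59 at 105 ± 7.79 and 119.8 ± 5.23 CPM. C1S, CLU, C4A and CD55 were named after their values were seen.

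PSCA, on chromosome 8 at positions 142670308 to 142682725 (plus strand, 3 exons), was near the lower end of what was measured, with 25 to 64 reads per library. The R1881 libraries held between 1.67 and 2.96 CPM, with a median of 1.84 CPM. The enzalutamide libraries held 1.72, 2.19, 1.73, 1.48 and 1.65 CPM. The ranges overlapped, and the highest values were those of R1881 replicates 5 and 6 (2.96 and 2.88 CPM), among the 3 libraries with a rho of 0.56 or more on GC content, while the transcript of PSCA has a GC content of 63.2%. The mean was 2.05 ± 0.490 CPM with R1881 and 1.75 ± 0.262 CPM with enzalutamide, and the log2 fold change was -0.17 (SE 0.12, 95% interval -0.42 to 0.09, adjusted p = 0.249 by limma, exact permutation p = 0.217). With the GC trend removed the log2 fold change was -0.09 (adjusted p = 0.399 by limma). Without R1881 replicate 6 and R1881 + enzalutamide replicate 2 it was -0.18 (adjusted p = 0.192 by limma). Both settings were chosen after the data were seen. At this depth no difference was detectable, and the 95% interval over all 15 libraries includes both a decrease of 0.42 and an increase of 0.09 on the log2 scale. PSCA shares 367 exon bases with JRK on the opposite strand, named for this overlap after its values were seen, which was at 25.8 ± 1.45 CPM with R1881 and 28.6 ± 1.43 CPM with enzalutamide, so some PSCA reads could be JRK reads if the counting did not use the strand.

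Of 27 genes of the LY6 and uPAR domain family, to which PSCA belongs, 8 had a row and 7 were tested. With enzalutamide 3 were higher and 1 was lower, beside 29.8% and 32.7% of all genes, and 3 did not pass. The median log2 fold change was -0.07 beside -0.01 over all genes. LYPD3 was at 2.39 ± 0.314 CPM with R1881 and 3.17 ± 0.161 CPM with enzalutamide (log2 fold change 0.35). LY6E was at 23.5 ± 4.20 and 18.9 ± 3.52 CPM (-0.31, adjusted p = 0.0265 by limma), a call lost in 5 of 29 other settings. CD59 and CD177 (1.38) were the other higher genes, and CD177, with a mean under 1 CPM, was named after its values were seen.

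F3 starts the extrinsic clotting cascade. Of 19 genes of the tissue factor pathway, 7 had a row, of which 2 were higher and 4 were lower, beside 29.8% and 32.7% of all genes. TFPI, the inhibitor of tissue factor (0.11, adjusted p = 0.113 by limma), did not pass. The median log2 fold change was -0.85 beside -0.01 over all genes. F5, which encodes clotting factor V, was at 21.3 ± 1.89 CPM with R1881 and 0.684 ± 0.217 CPM with enzalutamide (log2 fold change -4.22). TGM2, a transglutaminase, was at 2.61 ± 0.340 and 0.139 ± 0.0940 CPM (-2.29, and between -4.19 and -1.66 in the other settings, since few reads were left). The thrombin receptor F2R was higher, at 17.1 ± 1.55 and 24.8 ± 1.25 CPM (0.53), as was PROCR, the protein C receptor, at 1.08 ± 0.241 and 1.72 ± 0.623 CPM (0.46), a call lost against R1881 libraries 71 to 75 alone (0.36, adjusted p = 0.0821 by limma). F2RL1, a receptor cut by the tissue factor complex, and SERPINE2 were the other lower genes (-1.06 and -0.86), and these and TFPI were named after their values were seen.

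A list of 43 other surface proteins used or tested as drug targets gave 28 genes with a row. Of these, 13 were higher and 14 were lower with enzalutamide, beside 29.8% and 32.7% of all genes. DLL3, named after its values were seen, did not pass (0.10, adjusted p = 0.416 by limma). The median log2 fold change was 0.01 beside -0.01 over all genes. ERBB2, which encodes HER2, was at 105 ± 13.04 CPM with R1881 and 236 ± 21.5 CPM with enzalutamide (log2 fold change 1.17), close in size to FOLH1. ROR2, a receptor of Wnt ligands, was at 0.415 ± 0.161 and 3.19 ± 0.370 CPM (2.03, and between 1.57 and 2.99 in the other settings). It had 4 to 78 reads per library. Its R1881 mean is under the filter of 0.5 CPM, so it was tested only because of its enzalutamide libraries. IGF1R, the receptor of insulin-like growth factors, was at 111 ± 3.75 and 9.51 ± 0.508 CPM (-3.48), and TMEFF2, a prostate transmembrane protein, at 161 ± 9.22 and 62.5 ± 4.79 CPM (-1.36).

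**Figure D4:**
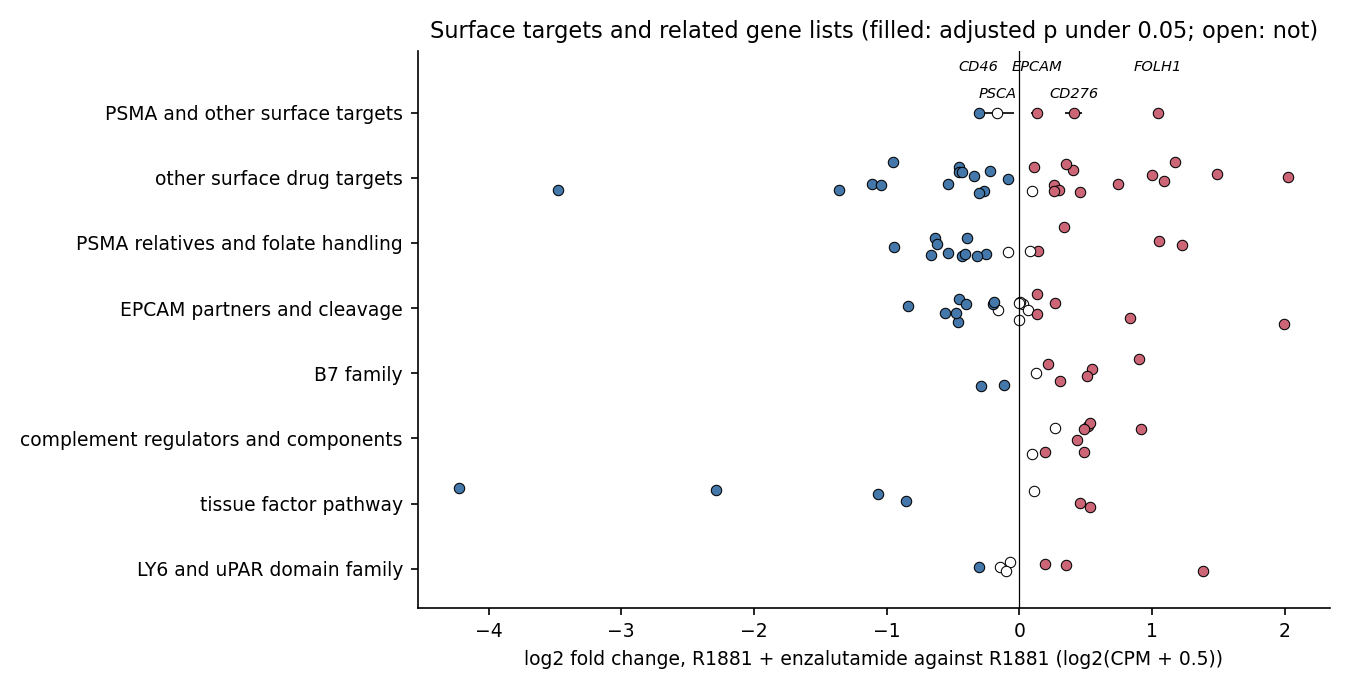
Log2 fold change (R1881 + enzalutamide against R1881, log2(CPM + 0.5) scale) of the 5 targets, with bars of the SE, and of each tested gene of the 7 related lists. Points are genes, filled where the adjusted p by limma is under 0.05 (red higher, blue lower with enzalutamide) and open where it is not. FOLH1 lies at 1.04 and CD46 at -0.31, and the surface drug targets spread on both sides, from -3.48 (IGF1R) to 2.03 (ROR2). ROR2 passed the filter on low values only because of its enzalutamide libraries.

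Because the targets are in the same libraries, their balance was also described as ratios of CPM within each library, with no test. The FOLH1 to EPCAM ratio was 8.43 to 9.63 with R1881 and 15.5 to 17.9 with enzalutamide. The FOLH1 to CD276 ratio was 2.90 to 4.68 with R1881 and 4.80 to 6.85 with enzalutamide, the narrowest gap among these ratios. The FOLH1 to CD46 ratio was 2.94 to 3.34 with R1881 and 7.59 to 8.00 with enzalutamide, since these genes moved in opposite directions. For PSCA the ratio was 233 to 461 with R1881 and 647 to 1065 with enzalutamide. The FOLH1 to KLK3 ratio, PSMA against PSA mRNA, was 0.366 to 0.583 with R1881 and 10.3 to 12.2 with enzalutamide. In each of these ratios the ranges of the treatments did not overlap, but neither did those of FOLH1 alone. The share of all genes whose ratio to FOLH1 separates in this way was not computed. The separation is therefore no result about the other targets, and the EPCAM and PSCA libraries overlapped between treatments.

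Levels were compared between genes only per length, as CPM per kb of all exons of the gene. With R1881, FOLH1 was highest at 139 ± 6.96, rank 329 of 14685 genes, followed by CD276 at 34.6 ± 3.33 (rank 1543), EPCAM at 33.6 ± 1.63 (rank 1582), CD46 at 15.6 ± 0.612 (rank 3328) and PSCA at 1.16 ± 0.278 (rank 11569). CD276 and EPCAM were neighbours whose libraries overlapped, at 30.8 to 42.4 and 30.6 to 35.6 CPM per kb. With enzalutamide, FOLH1 stood at 286 ± 13.1 (rank 132), CD276 at 46.03 ± 4.75 (rank 1010), EPCAM at 36.9 ± 2.29 (rank 1286), CD46 at 12.6 ± 0.768 (rank 3683) and PSCA at 0.994 ± 0.148 (rank 11985), and no neighbours overlapped. The place of CD46 depends on the length used. Per kb of its canonical transcript it was at 72.9 with R1881, above EPCAM (52.8) and with libraries that overlapped those of CD276 (57.6), and at 58.9 with enzalutamide, below CD276 (76.6) and overlapping EPCAM (57.9). FOLH1 was highest and PSCA was lowest with each of the 3 lengths.

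The R1881 libraries carry 2 series of numbers in the labels, 51 to 55 and 71 to 75, whose meaning is not given. Between these series 553 genes (3.29%) passed the threshold. This count rested on single libraries, at 969 without R1881 replicate 3, 353 without replicate 4, 86 without 5, 348 without 6, 74 without 7, 283 without 8, 56 without 9 and 60 without 10. By the same comparison 0 of the 5 targets passed by limma or by edgeR (0 with an unadjusted p under 0.05 by either). FOLH1 was at 759 ± 34.3 CPM in libraries 51 to 55 and at 721 ± 31.6 CPM in libraries 71 to 75, both below each enzalutamide library. KLK3 did differ between the series, with means of 1397 and 1779 CPM (log2 fold change 0.35, adjusted p = 0.000204 by limma). By the same test KLK2 (0.40, adjusted p = 3.00e-05) and TMPRSS2 (0.16, adjusted p = 0.0125) were also higher in libraries 71 to 75. FKBP5 did not pass (-0.11, adjusted p = 0.118). NAALAD2 (-0.42, adjusted p = 0.0228) and TYMS (-0.24, adjusted p = 0.0124) were higher in libraries 51 to 55. The enzalutamide libraries are numbered 81 to 85, so a difference tied to this series and the treatment cannot be told apart.

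The genes with the nearest profiles over the 15 libraries were ranked by the root mean square difference of log2(CPM + 0.5), each gene centred on its own mean. For FOLH1 these were FOLH1B (0.015), whose values may include reads of FOLH1, and HIBADH (0.039). HIBADH was at 126 ± 6.97 CPM with R1881 and 262 ± 12.6 CPM with enzalutamide. MMP24-AS1 (0.063) was near CD276. The nearest were for CD46 MSMO1 (0.032) and HSPH1 (0.036), and for EPCAM the pseudogene EEF1B2P3 (0.040) and BTF3 (0.041).

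The luminal prostate markers fixed for the cell type had rows for 10 of 10 genes and summed to between 7733 and 9096 CPM with R1881 and 2835 to 2913 CPM with enzalutamide, a list that includes KLK3, KLK2 and TMPRSS2. Of 6 basal markers 3 had a row (12.6 to 16.5 CPM with R1881 and 15.3 to 24.7 CPM with enzalutamide), and KRT5, KRT15 and TP63 had none. Of 7 neuroendocrine markers SYP and ENO2 had a row (30.6 to 36.5 and 56.4 to 59.6 CPM), of 6 fibroblast markers COL1A1, COL3A1 and LUM did (6.36 to 10.5 and 21.2 to 26.7 CPM), and of 6 endothelial markers VWF and EMCN did (2.14 to 3.06 and 3.26 to 4.43 CPM). The 6 leukocyte markers had no row. The part of these shifts in the values of the targets was not tested.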

How the data were processed

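Polyadenylated RNA of LNCaP cells was prepared with a stranded kit and sequenced as single-end reads of 50 bases. Per the labels and the methods of the study, the authors demultiplexed reads with bcl2fastq 2.17, aligned them to GRCh38 (STAR), assigned them to genes (featureCounts of Subread) and deposited for each gene and library a normalized signal that they call CPM. The sources used here give no other version, no annotation, no strand setting and no scaling. The deposited signal summed to between 1053406 and 1078567 per R1881 library and between 985580 and 1008992 per R1881 + enzalutamide library, so the sums separated by treatment. Once divided by the smallest value of the library, 100% of values were whole reads within a tolerance of 0.01. Counted reads ranged from 15830745 to 25416052 per library, which leaves low genes limited by counting error. The 15 libraries were grouped by their labels, 10 R1881 and 5 R1881 + enzalutamide. The methods text assigns the larger group to the combination, and the labels were followed. The study calls the libraries biological replicates, but the labels tie none to a culture, so p-values measure the spread between these libraries, which may be technical. In all 55 pairs within a treatment the counts differed beyond sampling noise (lowest chi-square per degree of freedom 1.63). No library is therefore a mere resampling of another, but this check cannot exclude separate libraries made from the same RNA.

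Differences were tested with limma 3.58.1 in R 4.3.3 (mean-variance trend, log2(CPM + 0.5), mean of at least 0.5 CPM, treatment as the only term). With counts simulated for this comparison over 16996 genes, the test called 99.5% of the 200 genes given a 2-fold change and 12 of the 16796 given none. The changed genes had a mean of at least 5 CPM, and genes were drawn independently, without the GC trend of the libraries. The simulation therefore gives neither the error rate in these data nor the power for low genes or smaller changes. The alternatives were on the recovered reads, the quasi-likelihood test of edgeR 4.0.16 and DESeq2 1.42.0, pseudocounts of 0.1 and 1, other filters and scalings, a replicate block, each R1881 series alone and each library left out. Removal of the GC trend, the fit without 2 libraries and the canonical transcript length were added after the data were seen. Positions and sequences are from GRCh38 with GENCODE v44, and GC content was found for 85.0% of genes.

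The targets and lists were chosen with earlier results of these data known. Besides the targets and their nearest relatives, the genes named are 4 androgen-induced genes, the 2 highest and 2 lowest log2 fold changes of each list among genes with an adjusted p under 0.05 and a mean of at least 1 CPM, and the 2 nearest profiles of each target past the threshold among genes with a mean of at least 5 CPM. A few genes that meet this rule are not reported here. Genes named after their values were seen are marked as such.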

Additional observations from a re-analysis of the deposited data

Results flagged for a closer look

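A library was set apart where its gap to the nearest of its group, divided by the group's range, passed Dixon's 95% critical value for the group's size. Of 82 groups examined, 5 held such a library, and chance gives about 4.1, or 5% of groups. CD276 was at 232 CPM in R1881 replicate 6, against 169 to 202 CPM in the other R1881 libraries. ERBB2 was at 273 CPM in R1881 + enzalutamide replicate 2, against 218 to 233 CPM in the other enzalutamide libraries. MSMO1 was at 73.0 CPM in that library, against 83.7 to 86.9 CPM in the others. In R1881 replicate 2, C1R was at 11.0 CPM, against 13.4 to 16.0 CPM in the other R1881 libraries, and LYPD3 was at 3.11 CPM, against 1.92 to 2.52 CPM.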

How the results depend on the processing

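Over 29 other settings, which include each library left out in turn, the log2 fold change of FOLH1 was between 1.01 and 1.14, that of CD276 between 0.35 and 0.50 and that of CD46 between -0.33 and -0.21, all past the threshold. EPCAM was between 0.10 and 0.23 and lost its call in 2 settings, with R1881 libraries 51 to 55 alone (0.10) and without R1881 + enzalutamide replicate 3, and the cause was not tested. PSCA was between -0.29 and -0.04 and never passed (adjusted p between 0.11 and 0.746 by limma and the count tests). With a single library left out, the range was 1.03 to 1.07 for FOLH1, 0.10 to 0.16 for EPCAM, 0.35 to 0.44 for CD276, -0.33 to -0.27 for CD46 and -0.23 to -0.11 for PSCA. No result of the targets changed direction. The median log2 fold change of all genes was -0.01 as deposited and 0.07 with library totals set to 1000000.

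With a change of at least 2-fold required, 1270 genes were called in place of 10660, and with a mean of at least 1 CPM 4 complement genes in place of 7, since fewer genes meet these criteria. Between the R1881 series 553 genes were called, and between 56 and 969 with a library left out. Per kb of the longest transcript, the R1881 and enzalutamide levels were 180.0 and 371 for FOLH1, 52.8 and 57.9 for EPCAM, 57.6 and 76.6 for CD276, 30.9 and 24.99 for CD46, and 2.09 and 1.79 for PSCA. The canonical transcript gave the same values except for CD46 (72.9 and 58.9).

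Libraries of the treatments share only a replicate number. The correlation of their deviations by number was between -0.07 and 0.07, and 1 of 5 numbers correlated best with its own. With the replicate block, 10043 genes were called, and the log2 fold change was 1.06 for FOLH1, 0.15 for EPCAM, 0.38 for CD276, -0.29 for CD46 and -0.11 for PSCA. R1881 replicates 6 to 10 share a number with no enzalutamide library, so they add nothing to the fold changes of this fit.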
